A study of Mus musculus with 12 samples.

Results

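Mammary glands with and without the progesterone receptor were compared after 24 h of progesterone. The comparison used 6 of the 12 arrays in the study, 3 from wild type and 3 from receptor null females, and covered every probe set that is not a control. All mice were BALB/c, 10 weeks old and ovariectomized. Both groups received 17β-estradiol (100 ng, subcutaneous) for 24 h and then 17β-estradiol (100 ng) with progesterone (2.5 ug) for 24 h. RNA of 3 mice was pooled for every array. The other 6 arrays came from the same genotypes after 8 h of progesterone and are used here only where a sentence names them. The labels do not describe the null allele. No group without progesterone was included, so an acute response to the hormone and a lasting difference between the genotypes cannot be told apart.

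The progesterone receptor is a nuclear receptor that binds DNA when progesterone is present. In the mammary gland it is made by a subset of luminal cells, which signal to their neighbours through secreted ligands. RANKL, encoded by Tnfsf11, and WNT4 are the best known of these, and they act on cells that lack the receptor to drive proliferation, side branching and the growth of alveoli.

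The samples were whole glands, in which fat, epithelium and other cells are mixed. Fewer cells of a type and less RNA per cell cannot be told apart in such samples. The adipocyte gene Adipoq lay between 13.96 and 14.26 on the 6 arrays, and the luminal keratin gene Krt8 between 10.67 and 11.29. Krt8 alone does not measure the share of epithelium. Of 16 epithelial adhesion and desmosome genes, 15 lay higher in wild type (median difference 0.52 on the log2 scale). Of 12 luminal genes 7 did (median 0.1), and of all 12004 tested genes 6388 did. All levels are log2 intensities of 1 probe set, and levels of different genes are not compared. The array medians lay between 5.86 and 5.91. In 28 of the 156 called genes, all pools of the lower genotype read below the medians of their arrays. No detection calls were used here, so how far background sets their folds is not known. Among them are Tnfsf11, Rspo1, Defb1, Sftpd, Aldh3a1, Cntnap2, Gm266, Eps8l1 and Slco1a5, low in null glands, and Ido1, Dmbt1, Slc5a5, Tph1, Aoc1 and Capsl, low in wild type.

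Some pools stood apart. Over the tested probe sets, wild type pool 2 correlated more closely with null pool 1 (r = 0.985) and null pool 2 (0.982) than with wild type pools 1 (0.974) and 3 (0.977). Of 10 skin keratinocyte markers, the mean relative to the 6 arrays was 2.03, -0.04 and 0.97 (log2) in wild type pools 1, 2 and 3 and -0.64, -1.2 and -1.11 in null pools 1, 2 and 3. The cornified layer gene Lor was at 10.10 in wild type pool 1 and between 4.88 and 5.92 on the other arrays. Means of 19 skeletal muscle markers were 2.21, -0.51 and 0.49 in wild type pools and 0.22, -1.52 and -0.89 in null pools. Means of 15 T and B lymphocyte markers were 0.31, -1.09 and 0.57 in wild type pools and -1.66, 0.47 and 1.40 in null pools. Limma called none of these 44 markers, with 5, 3 and 0 at an unadjusted p under 0.05. Of all 12004 tested genes, 1658 lay under that p. The 18 white adipocyte genes kept means between -0.06 and 0.08 in every pool.

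**Figure D1:**
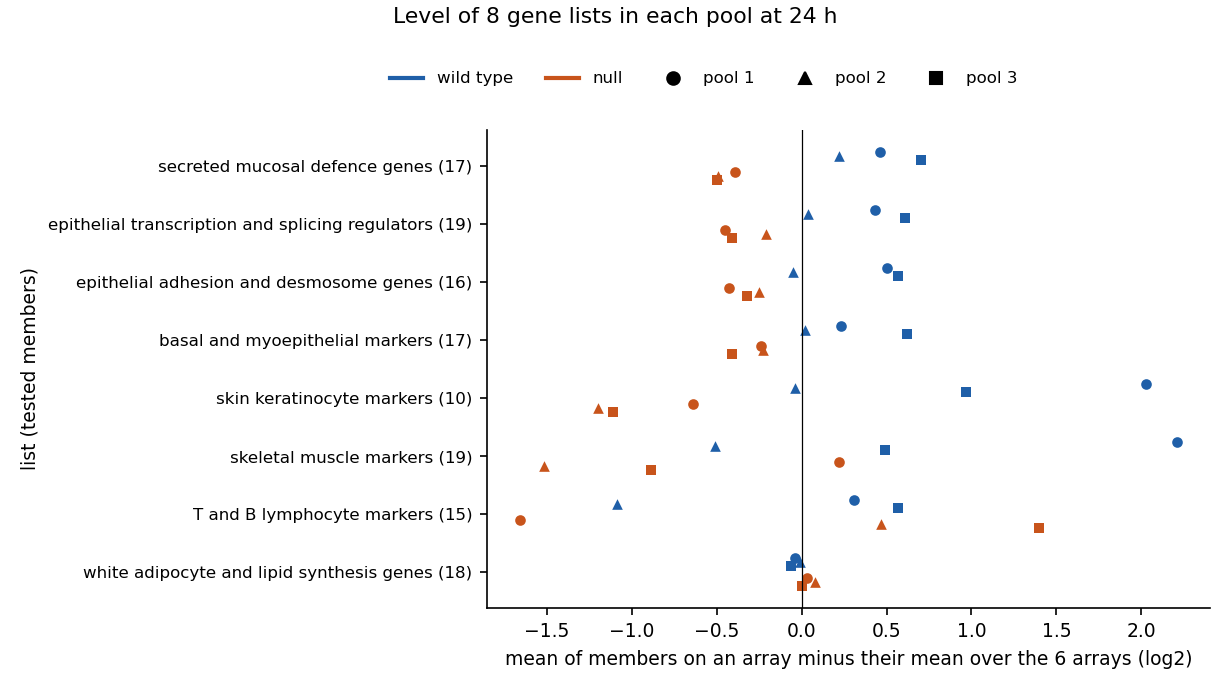
Mean level of 8 gene lists on each 24 h array, as the log2 deviation from the mean of the 6 arrays. Blue symbols are wild type pools, orange symbols null pools, and the shape gives the pool number. Skin, muscle and lymphocyte markers spread widely between pools of 1 genotype. The skin means also lay higher in every wild type pool (-0.04 to 2.03) than in every null pool (-1.2 to -0.64). Mucosal defence genes split by genotype (0.22 to 0.70 against -0.50 to -0.39), and white adipocyte genes stay near 0.

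Pgr itself, the targeted gene, was measured by 3 probe sets. The one that represents it read 7.84, 7.52 and 8.10 in wild type and 7.86, 7.33 and 7.20 in null pools, so the groups overlapped (limma adjusted p = 0.45). Another read 4.36, 4.01 and 4.47 in wild type and 6.57, 6.32 and 6.24 in null pools. The null pools were higher by 2.10 on the log2 scale (adjusted p = 9.0e-05). The remaining one lay at 4.29 ± 0.41 (SD, n = 3) and 4.02 ± 0.13 and was too low to be tested. Where these probes lie relative to the null allele is not known here, so Pgr does not check the genotype labels at 24 h. Neighbours of Pgr were counted among genes with a symbol on the array. Of the 15 such genes on each side, 17 were tested and 1 was called. Cfap300, a cilium gene 4 places from Pgr in that count, read 5.70, 6.17 and 5.88 in wild type and 6.89, 6.95 and 6.93 in null pools. It was 2.01-fold higher in null (SE 0.15, adjusted p = 0.0070). Arhgap42, next to Pgr in that count, lay 1.32-fold higher in wild type and was not called (adjusted p = 0.060).

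More genes were higher in wild type than in null glands. Limma called 262 of 23709 probe sets (1.11%), 207 of them (0.873%) with more signal in wild type and 55 (0.232%) in null glands. Counting 1 probe set per gene, 156 of 12004 genes were called (1.30%), of which 126 (1.05%) had more signal in wild type and 30 (0.250%) in null glands. The median difference of all 12004 genes was 0.01 (log2), and 6388 of them lay higher in wild type. Limma gave 1658 of the 12004 an unadjusted p under 0.05. The median difference of called genes was 1.89-fold in those higher in wild type and 2.30-fold in those higher in null glands. Among the called genes, 52 of those higher in wild type and 18 of those higher in null glands differed by at least 2-fold. In all 156 called genes the 3 wild type arrays did not overlap the 3 null arrays. Over all genes tested, that held for 10.2% in the direction of wild type and 5.65% in the direction of null glands. In 56 called genes a further probe set was tested. Of these 85 probe sets, 79 had the same sign and 37 were called. Without wild type pool 2, 704 probe sets were called, of which 252 were among the 262. In genes that was 386 (3.22%), with 281 higher in wild type (2.34%) and 105 in the other direction (0.875%). The probe set count was 149 without wild type pool 1, 126 without wild type pool 3 and 155 without null pool 2. Of the 156 genes, 68 were called whichever of the 6 pools was left out.

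The fit took its spread from all 12 arrays. With the 6 arrays at 24 h alone, limma called 71 probe sets, and 29 of the 74 named genes that had been called. Among these 29 were Id4 (adjusted p = 0.0089), Wnt4 (0.024), Defb1 (0.0071), Sftpd (0.0071), Fcgbp (0.020), Aldh3a1 (0.0073), Cldn7 (0.030), Cldn3 (0.019), Tgfb3 (0.015), Erbb3 (0.028), Ido1 (0.00010), Dmbt1 (0.0035), Slc5a5 (0.0062) and Slc12a2 (0.0062). Tnfsf11 (0.12), Rspo1 (0.054), Ccnd1 (0.074), Esrp1 (0.061), Tfap2b (0.058), Tfap2c (0.073), Cdh1 (0.087), Tph1 (0.052), Igha (0.093) and Cfap300 (0.051) were among the 45 not called there.

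**Figure D2:**
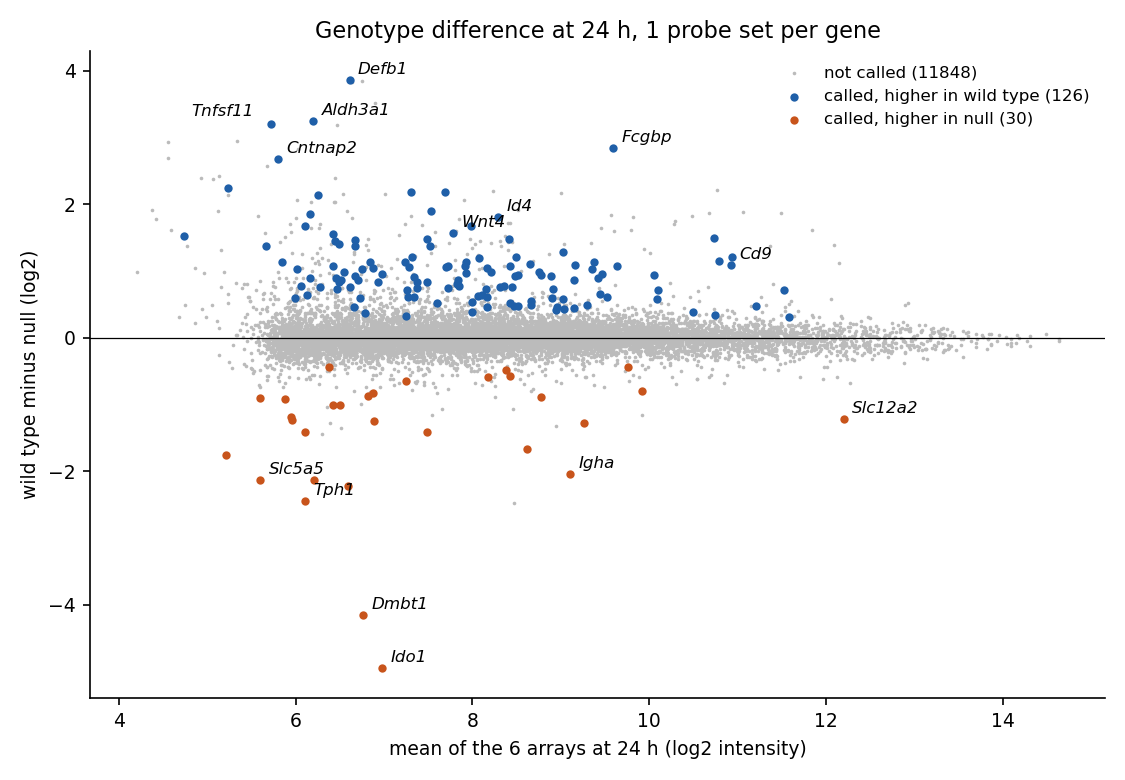
Wild type minus null at 24 h (log2, vertical axis) against the mean of the 6 arrays (log2 intensity, horizontal axis), 1 point per gene. Blue points are the 126 genes called higher in wild type, orange points the 30 called higher in null glands and grey points genes not called. Ido1 and Dmbt1 lie lowest, 4.95 and 4.15 below 0, and Defb1 lies highest at 3.86.

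Of the secreted ligands known as progesterone targets, Tnfsf11 and Wnt4 were higher in wild type, as was Rspo1. Tnfsf11, which encodes RANKL, read 7.79, 6.41 and 7.76 in wild type pools 1, 2 and 3 and 2.93, 4.38 and 5.04 in null pools. Every wild type pool lay above every null pool, and pool 2 was the lowest of the wild type pools. The difference was 3.20 (log2, SE 0.52, adjusted p = 0.011), and the call was lost without wild type pool 1 (0.064) or 3 (0.070). Wnt4 read 8.92, 8.38 and 8.38 against 6.85, 7.25 and 6.88, a difference of 1.57 (SE 0.19, adjusted p = 0.0017). A further Wnt4 probe set differed by 1.32 (adjusted p = 0.0097). Rspo1 encodes R-spondin 1, a secreted protein that strengthens WNT signals at the receptor. It read 6.55, 5.94 and 6.56 against 5.09, 4.82 and 4.99 (difference 1.38, SE 0.16, adjusted p = 0.0017). Lgr6, a receptor for R-spondins, was called higher in wild type by its representing probe set (1.77-fold, adjusted p = 0.014), but its other tested probe set differed by -0.16 (log2, adjusted p = 0.68). Removing wild type pool 1 (0.066) or 3 (0.081), or null pool 2 (0.063) or 3 (0.056), ended the Lgr6 call. The non-canonical ligand gene Wnt5a was lower in wild type, at 7.74, 8.02 and 7.91 against 8.58, 8.37 and 8.44 (adjusted p = 0.033), a call lost on leaving out any pool but wild type pool 2 (0.072 to 0.14). These 4 calls stood among 32 tested WNT and R-spondin genes, 3 higher in wild type and 1 lower, with a median difference of 0.12. That count was 5 without wild type pool 2 and 2 without wild type pool 1 or 3 or null pool 2 or 3. Tnfsf11 was the 1 called of 12 tested RANK pathway genes. Its receptor gene Tnfrsf11a read between 5.84 and 6.05 on all 6 arrays (adjusted p = 0.68).

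Regulators of growth and fate also differed. Id4 encodes a helix-loop-helix protein without a DNA-binding region, which blocks its partners. Its 3 wild type pools read 9.21, 8.88 and 9.49, and the null pools read 7.53, 7.30 and 7.32. The difference was 1.81 (SE 0.18, adjusted p = 0.00049), and 2 further probe sets differed by 1.82 and 1.12. No other member of 10 tested Id genes and partners was called, and Id1 differed by 0.02 and Id2 by -0.01. Ccnd1, the D cyclin that carries cells through G1, read 10.13, 9.48 and 9.97 against 8.75, 8.87 and 8.89 (2.04-fold, adjusted p = 0.0041), and its 2 further probe sets were called in the same direction. Myc, a transcription factor of cell growth, lay at 9.23, 8.86 and 9.52 against 7.72, 8.17 and 8.42 (2.15-fold, adjusted p = 0.015). Removing wild type pool 1 (0.066) or 3 (0.073), or null pool 2 (0.052), ended the Myc call. Ccnd1 and Myc were the 2 called of 20 G1 genes. Of 23 DNA replication and mitosis genes, 21 lay higher in wild type (6388 of all 12004 genes did), with a median difference of 0.30. Limma called 0 of them, with 5 at an unadjusted p under 0.05. It called 2 without wild type pool 2 and 1 without null pool 3. The list's mean was 0.24, -0.11 and 0.30 in wild type pools and -0.53, -0.08 and 0.18 in null pools, so the groups overlapped. Without null pool 1 the median difference of the list was 0.08. Mki67, a marker of cycling cells, read 8.18, 6.98 and 8.08 in wild type and 6.61, 7.60 and 7.87 in null pools, so its groups overlapped.

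Tgfb3, a ligand of the TGF-beta family, was tight within groups, at 8.73, 8.70 and 8.67 in wild type and 7.75, 7.83 and 7.56 in null pools (1.99-fold, SE 0.08, adjusted p = 0.00016). It was the 1 called of 25 genes of that family. The receptor tyrosine kinase gene Erbb3 read 9.09, 9.28 and 9.39 against 8.29, 8.46 and 8.19 (1.91-fold, SE 0.11, adjusted p = 0.0017), the 1 called of 10 EGF family ligands and receptors. Of 15 Notch genes the ligand gene Dll1 was called (1.43-fold, adjusted p = 0.010), and that call was lost without wild type pool 3 (0.053) or null pool 2 (0.054). Of 17 tested progesterone targets 5 were higher in wild type (Tnfsf11, Id4, Wnt4, Rspo1 and Ccnd1) and Wnt5a was lower. The median of the 17 was 0.36, against 0.01 for all genes. The count of 6 rose to 9 without wild type pool 2 and fell to 4 without wild type pool 1 or 3. Areg, Calca and Prlr, which belong to the list, were not analysed here. No member was called among 13 steroid receptor and chaperone genes, 9 prolactin receptor and STAT5 genes or 15 targets shared with the glucocorticoid receptor, with 1, 2 and 5 at an unadjusted p under 0.05 by limma. Leaving out wild type pool 2 gave 1 call in the prolactin list, and leaving out wild type pool 1 gave 1 in the glucocorticoid list. The estrogen receptor gene Esr1 read 10.76, 10.93 and 10.55 in wild type and 10.64, 10.52 and 10.33 in null pools (adjusted p = 0.38).

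**Figure D3:**
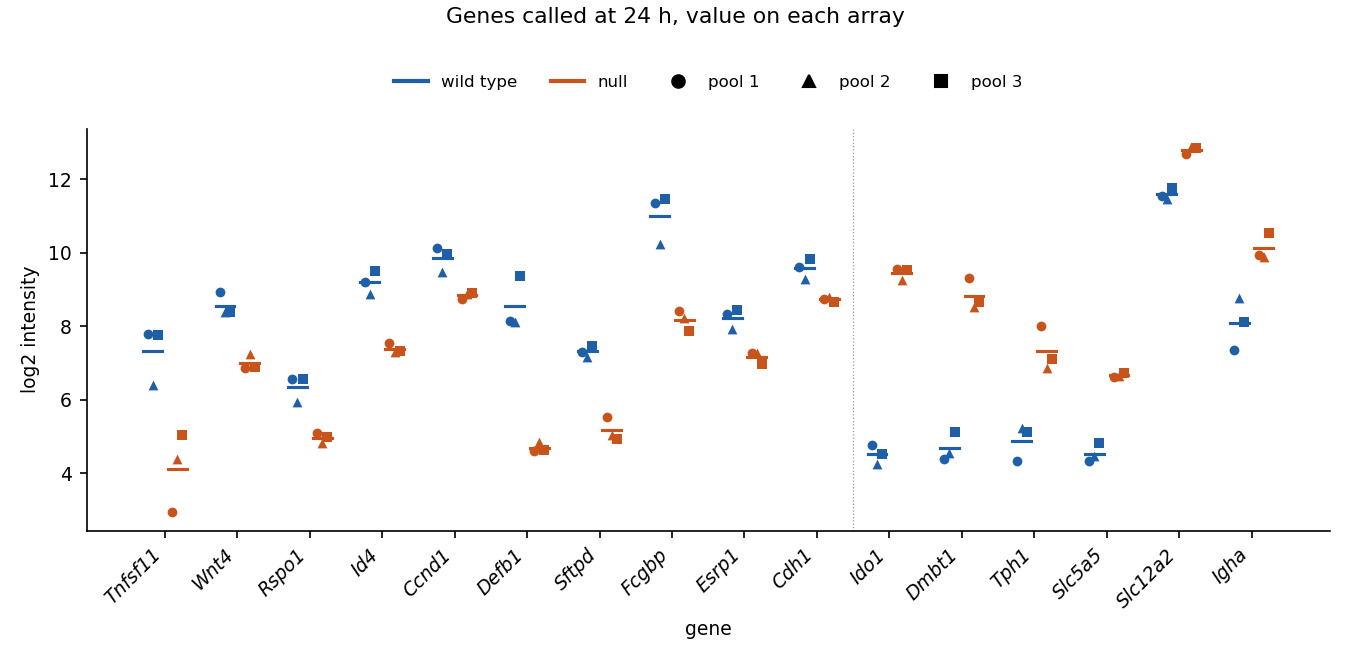
Log2 intensity (vertical axis) of 16 called genes on each 24 h array, with wild type in blue, null in orange, a horizontal line at each group mean and the symbol giving the pool. The 10 genes left of the dotted line were higher in wild type and the 6 on the right higher in null glands, and in none do the groups overlap.

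Promoter sequence was looked at because the receptor binds DNA at a palindromic element made of 2 inverted hexamers. The windows were the 250 bases before each annotated gene start in RefSeq (GRCm38.p6), searched on both strands for the full element (AGAACA, any 3 bases, then TGTTCT), for its inner 9 letters ACANNNTGT and for the hexamer TGTTCT, each of which also lies within the full element. The full element was in 3 of 32851 windows (0.00913%) and in none of the 129 windows of 99 genes called higher in wild type or the 21 windows of 18 genes called higher in null glands. The inner letters were in 8.53% of the windows of genes higher in wild type, 9.52% of those higher in null glands and 5.84% of all windows. The hexamer was in 14.7%, 14.3% and 16.1%. A match is a string of letters and not a measured binding site, and absence covers this window only. The windows of Tnfsf11 (chr14:78308044-78308293, minus strand) and Wnt4 (chr4:137277385-137277634, plus strand, 85.2% G and C) are shown because these genes encode the ligands above, and neither held any of the strings. Eps8l1 (chr7:4460447-4460696, plus strand), Acot1 (chr12:84009252-84009501, plus strand) and Capsl (chr15:9435778-9436027, plus strand) are shown because 1 window of each held both the hexamer and the inner letters. Among the 50 genes ranked by size of difference, they were the only ones with such a window among those with a window examined. Not all of the 50 had a window examined. Defb1 and Ido1, the largest difference in each direction, had none, so the choice does not cover them. Capitals mark the hexamer as TGTTCT or, on the other strand, AGAACA. It begins 187 and 51 bases before the start of Eps8l1, 171 before that of Acot1 and 159 before that of Capsl.
Tnfsf11: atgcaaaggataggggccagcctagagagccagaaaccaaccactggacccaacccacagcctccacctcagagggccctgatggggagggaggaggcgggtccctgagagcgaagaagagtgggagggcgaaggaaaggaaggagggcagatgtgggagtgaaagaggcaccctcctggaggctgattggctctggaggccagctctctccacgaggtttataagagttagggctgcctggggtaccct
Wnt4: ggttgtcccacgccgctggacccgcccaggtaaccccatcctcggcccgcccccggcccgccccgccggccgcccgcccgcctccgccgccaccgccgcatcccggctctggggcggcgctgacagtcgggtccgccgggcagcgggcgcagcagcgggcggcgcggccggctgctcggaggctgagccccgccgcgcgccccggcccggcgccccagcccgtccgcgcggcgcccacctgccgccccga
Eps8l1: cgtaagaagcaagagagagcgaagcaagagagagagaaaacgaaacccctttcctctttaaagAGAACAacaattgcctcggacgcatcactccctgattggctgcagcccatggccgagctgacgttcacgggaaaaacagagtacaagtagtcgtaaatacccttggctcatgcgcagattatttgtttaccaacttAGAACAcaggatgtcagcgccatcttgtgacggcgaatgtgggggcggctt
Acot1: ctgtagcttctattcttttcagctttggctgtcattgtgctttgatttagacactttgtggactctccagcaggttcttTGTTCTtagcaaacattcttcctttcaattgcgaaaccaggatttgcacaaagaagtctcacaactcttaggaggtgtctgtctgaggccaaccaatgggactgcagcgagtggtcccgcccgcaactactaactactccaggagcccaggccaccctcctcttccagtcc
Capsl: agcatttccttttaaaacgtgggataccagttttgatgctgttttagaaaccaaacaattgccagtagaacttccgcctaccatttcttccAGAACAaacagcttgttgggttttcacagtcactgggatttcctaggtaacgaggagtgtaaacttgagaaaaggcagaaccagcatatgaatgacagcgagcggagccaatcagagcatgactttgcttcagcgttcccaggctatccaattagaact

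Some regulators of epithelial identity were higher in wild type. Of 19 tested epithelial transcription and splicing regulators, 7 were called, all higher in wild type, and the median difference was 0.65. The AP-2 gene Tfap2b read 8.09, 8.16 and 8.41 against 6.51, 7.25 and 6.46 (2.79-fold, adjusted p = 0.0019). Tfap2c, its family member, read 7.36, 6.97 and 7.90 against 6.06, 5.74 and 6.01 (2.77-fold, adjusted p = 0.0046). Esrp1, which sets epithelial splicing patterns, read 8.33, 7.93 and 8.44 against 7.27, 7.28 and 6.96 (2.09-fold, adjusted p = 0.0054). These 3 calls were kept whichever pool was left out. Tfap2a (1.79-fold), the basal cell regulator Trp63 (2.65-fold), Klf5 (2.05-fold) and Grhl1 (1.67-fold) were also called, with adjusted p between 0.015 and 0.038. Each of these 4 was lost without wild type pool 1 or 3 or null pool 3, with adjusted p between 0.057 and 0.17, Trp63 and Klf5 also without null pool 2 (0.12 and 0.09), and Grhl1 also without null pool 1 (0.11) or 2 (0.063). The list's count was 12 without wild type pool 2 and 3 without any of wild type pools 1 and 3 and null pool 3. Foxa1, a luminal factor, differed by 0.01 (adjusted p = 0.99).

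Junction genes changed in part. Cldn7 read 8.78, 8.39 and 8.82 against 7.45, 7.66 and 7.33 (2.28-fold, adjusted p = 0.0020), and Cldn3 read 9.33, 9.10 and 9.31 against 8.32, 8.34 and 8.10 (1.99-fold, adjusted p = 0.0017). Both encode claudins, the sealing proteins of tight junctions, and were the 2 called of 17 claudin and tight junction genes, 4 without wild type pool 2. All 3 further Cldn3 probe sets were called, with differences of 1.24 to 1.30. The other claudins tested included Cldn4, at 8.56, 8.49 and 8.62 against 8.27, 8.46 and 8.16 (adjusted p = 0.28). Cdh1, which encodes E-cadherin, read 9.62, 9.28 and 9.84 against 8.74, 8.79 and 8.65 (1.81-fold, adjusted p = 0.0049) and was the 1 called of 16 adhesion and desmosome genes. That count was 7 without wild type pool 2. The desmosome gene Dsp read 10.84, 9.76 and 11.19 against 9.02, 9.09 and 8.84, groups that do not overlap, and was not called (adjusted p = 0.11). The means of the adhesion list were 0.50, -0.05 and 0.57 in wild type pools and -0.43, -0.25 and -0.32 in null pools.

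The main luminal keratins were not called. Krt8 read 11.13, 10.67 and 11.15 in wild type and 11.29, 11.18 and 11.04 in null pools (adjusted p = 0.52), Krt18 differed by 0.18 (adjusted p = 0.41) and Krt19 by -0.26 (adjusted p = 0.56). Krt7 was the 1 called of 12 luminal genes (1.38-fold, adjusted p = 0.046), a call lost on leaving out any pool but wild type pool 2 (0.058 to 0.18). Of 17 basal and myoepithelial markers 16 lay higher in wild type (6388 of all 12004 genes did), with a median of 0.35. Trp63 was called, and 4 were without wild type pool 2. Of 12 alveolar progenitor markers Rspo1, Wfdc18 and Lcn2 were called, with a median of 0.43. That count was 5 without wild type pool 2 and 1 without wild type pool 3 or null pool 2 or 3. Rspo1 also belongs to the WNT and progesterone target lists, and Wfdc18 and Lcn2 to the mucosal defence list, so these calls are not separate results. The basal keratin gene Krt14 read 9.47, 8.41 and 9.97 against 7.62, 7.72 and 7.36 (adjusted p = 0.10), and Krt5 read 8.86, 7.95 and 8.33 against 7.43, 7.25 and 7.0 (adjusted p = 0.072). Skin keratinocytes express Krt14, Krt5, Trp63, Dsp and Klf5 too, which are examples and not a full list. The 10 skin markers were also all higher in wild type, with a median of 1.97, and 1.34 without wild type pool 1. Krt10, their defining keratin, read 12.43, 8.30 and 7.68 against 8.31, 7.23 and 7.14 (adjusted p = 0.48). The part of skin in the differences of epithelial regulators, junction genes, keratins and membrane proteases was not tested.

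The list of membrane proteases and their inhibitors, which also holds epithelial membrane genes such as Prom2 and Ap1m2, had 6 called members of 15. Prom2, which encodes a protein of epithelial membrane protrusions, read 8.54, 8.01 and 8.89 against 6.65, 6.63 and 6.47 (3.72-fold, adjusted p = 0.00048). Spint1, an inhibitor of membrane serine proteases, was 1.78-fold higher in wild type (adjusted p = 0.0080), and Ap1m2, an adaptor of basolateral sorting in epithelia, 1.54-fold (adjusted p = 0.0069). The calls of the protease gene St14 (1.94-fold, adjusted p = 0.033) and the serpin gene Serpinb5 (2.08-fold, adjusted p = 0.033) were lost without wild type pool 1 or 3 or null pool 2 or 3, with adjusted p between 0.089 and 0.15, and Serpinb5 also without null pool 1 (0.058). Tmprss2, another membrane serine protease, was the member higher in null glands, at 9.64, 10.31 and 9.75 against 8.38, 8.66 and 8.82 in wild type (2.43-fold, adjusted p = 0.0077).

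Secreted mucosal defence genes had the largest share of calls among the lists with at least 5 tested members, 9 of 17, with 8 higher in wild type and a median of 1.01. The lists were chosen with earlier results of these data known, so this share is a description and not a test. Defb1, a beta-defensin that kills bacteria, read 8.15, 8.11 and 9.37 in wild type and 4.59, 4.84 and 4.62 in null pools. The lowest wild type pool lay 3.27 above the highest null pool, and the difference of the means was 3.86 (SE 0.53, adjusted p = 0.0043). A further Defb1 probe set differed by 1.77 (adjusted p = 0.033). Sftpd, the lung collectin that binds microbial sugars, read 7.31, 7.17 and 7.47 against 5.53, 5.04 and 4.94 (4.42-fold, SE 0.16, adjusted p = 9.0e-05). Fcgbp, a mucin-like protein, read 11.34, 10.23 and 11.46 against 8.41, 8.22 and 7.86 (7.18-fold, SE 0.30, adjusted p = 0.00093). These 3 were called whichever pool was left out. Wfdc12 (4.55-fold), Wfdc18 (2.82-fold), Chil1 (2.31-fold), the siderophore-binding protein gene Lcn2 (1.93-fold) and Wfdc2 (1.35-fold) were called with adjusted p between 0.014 and 0.028. These 5 were lost without null pool 3, with adjusted p between 0.053 and 0.088, and without null pool 2, between 0.056 and 0.11. All of them but Wfdc12 were also lost without wild type pool 3, with adjusted p between 0.091 and 0.13, Wfdc18 without wild type pool 1 (0.13) and Wfdc2 without null pool 1 (0.073). The list's count was 12 without wild type pool 2, 5 without wild type pool 3 or null pool 3 and 4 without null pool 2. Lyz1, Lyz2 and Ltf, which encode lysozymes and lactoferrin, differed by 0.06, 0.00 and 0.29 and were not called. The list's mean was 0.46, 0.22 and 0.70 in wild type pools and -0.39, -0.49 and -0.50 in null pools.

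Dmbt1 went the other way within that list. It encodes a scavenger receptor protein of mucosal secretions and read 4.37, 4.55 and 5.13 in wild type and 9.31, 8.51 and 8.67 in null pools. The null pools were 17.7-fold higher (SE 0.38, adjusted p = 0.00031), and the call was kept whichever pool was left out. Its wild type values lay below the array medians.

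Several of the largest differences lay outside these groups. Aldh3a1, an aldehyde dehydrogenase, read 7.42, 7.67 and 8.37 against 4.34, 4.38 and 4.99 (9.49-fold, SE 0.28, adjusted p = 0.00020) and was the 1 called of 18 aldehyde dehydrogenase and retinoid genes. Its null values lay below the array medians. Cntnap2, a neuronal cell adhesion gene, read 6.82, 6.93 and 7.66 against 4.41, 4.51 and 4.46 (6.40-fold, adjusted p = 0.014). Its call was lost without wild type pool 3 (0.079) or null pool 2 (0.053). Fgg, a fibrinogen chain, read 7.67, 8.83 and 8.66 against 6.51, 6.64 and 5.47 (4.53-fold, adjusted p = 0.014), and was lost without wild type pool 3 (0.079). Eps8l1, which acts on actin, read 7.28, 7.06 and 6.93 against 5.39, 5.24 and 5.09 (3.60-fold, adjusted p = 0.00031). Slco1a5, an organic anion transporter, was 3.21-fold higher (adjusted p = 0.0028), as was the acyl-CoA thioesterase Acot1 (3.21-fold, adjusted p = 0.0016), whose probes may also read its near-identical family members.

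Further called genes had mixed roles. Mboat1, a lysophospholipid acyltransferase, read 9.14, 9.08 and 9.24 against 7.57, 7.69 and 7.76 (2.80-fold, SE 0.14, adjusted p = 0.00043). Depdc7 read 7.31, 7.42 and 7.32 against 5.85, 6.06 and 6.04 (2.58-fold, SE 0.11, adjusted p = 0.00015). The tetraspanin gene Cd9 read 11.50, 11.34 and 11.56 against 10.41, 10.39 and 10.34 (2.13-fold, SE 0.10, adjusted p = 0.00031). Pdgfd, a platelet-derived growth factor, was 2.60-fold higher (adjusted p = 0.0077), and Gm266, without a known role, 4.75-fold (adjusted p = 0.0017). These calls were kept whichever pool was left out. The membrane-binding protein gene Anxa8 (2.96-fold, adjusted p = 0.016) and Tenm2 (2.74-fold, adjusted p = 0.027) were called but lost without wild type pool 1 or 3 or null pool 2, with adjusted p between 0.064 and 0.11, and Tenm2 also without null pool 1 (0.058) or 3 (0.086).

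A further 26 genes kept their calls whichever pool was left out but fell outside the rule for named genes, and the following were chosen after their values were seen. The transcription factor genes Sox4 (2.21-fold, adjusted p = 0.00049), Irx4 (2.19-fold, adjusted p = 0.0017) and Irx2 (2.08-fold, adjusted p = 0.0028) were higher in wild type. Vdr, the vitamin D receptor, read 7.12, 6.97 and 7.30 against 6.52, 6.05 and 6.03 (1.90-fold, adjusted p = 0.0060), and its further probe set differed by 1.18 (adjusted p = 0.0010). The neurotrophin gene Bdnf differed by 1.03 on its representing probe set (adjusted p = 0.0077) and by 2.17 on another (adjusted p = 0.00064). Podxl, a sialomucin of apical membranes, was 2.13-fold higher (adjusted p = 0.0017), and the prostaglandin transporter gene Slco2a1 1.70-fold (adjusted p = 0.0067).

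Of 16 tested tryptophan and biogenic amine genes, Ido1, Tph1 and Aoc1 were called, all higher in null glands. Ido1, which opens the tryptophan ring and starts its breakdown, read 9.56, 9.27 and 9.54 in null pools and 4.76, 4.24 and 4.53 in wild type. The null pools were 30.9-fold higher (SE 0.18, adjusted p = 1.6e-07). Its wild type values lay below the array medians, so that fold has the limit given above for such genes. Tph1, the first enzyme of serotonin synthesis, read 8.01, 6.86 and 7.10 in null pools and 4.32, 5.22 and 5.11 in wild type (5.44-fold, adjusted p = 0.0091). Aoc1, a diamine oxidase, read 8.08, 6.62 and 8.41 against 5.48, 5.44 and 5.51 (4.67-fold, adjusted p = 0.012), a call lost without wild type pool 1 (0.051) or 3 (0.054). The median of the list was -0.09. The kynurenine enzyme genes Kmo and Haao, downstream of Ido1, differed by -0.39 and -0.38 and were not called (adjusted p = 0.57 and 0.51).

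In the list of solute carriers, Slc5a5 and Slc12a2 had the largest called differences. Slc5a5, the iodide transporter, read 6.62, 6.64 and 6.72 in null pools and 4.32, 4.46 and 4.81 in wild type (4.38-fold, SE 0.15, adjusted p = 8.2e-05), with the wild type values below the array medians. Slc12a2, which brings sodium, potassium and chloride into cells, read 12.70, 12.88 and 12.85 against 11.54, 11.47 and 11.75 (2.33-fold, SE 0.09, adjusted p = 9.0e-05). Its 2 further probe sets differed by -1.54 and -1.03, and both were called. Of 219 tested members of that list 3 were called higher in null glands and 1 in wild type, 4 in all (1.83%, against 1.30% of all tested genes), with a median of -0.01. The list does not hold the carrier genes Slco1a5 (3.21-fold) and Slco2a1 (1.70-fold), both called higher in wild type. Slc7a1 and Slc7a2 both encode carriers of cationic amino acids and lay on opposite sides. Slc7a1 was 1.46-fold higher in wild type (adjusted p = 0.031), and Slc7a2 1.85-fold higher in null glands (adjusted p = 0.022). The Slc7a1 call ended with the removal of wild type pool 1 (0.13) or 3 (0.13), or of null pool 1 (0.093) or 2 (0.11). That of Slc7a2 ended with the removal of wild type pool 1 (0.066) or 3 (0.088), or of null pool 1 (0.072) or 3 (0.069). The list's count was 8 without wild type pool 2 and 2 without wild type pool 1 or 3.

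Igha, the heavy chain of IgA, read 9.94, 9.87 and 10.54 in null pools and 7.36, 8.78 and 8.12 in wild type (4.10-fold, adjusted p = 0.0093). Its 2 further probe sets, of a type that can read related sequences, were called in the same direction. It was the 1 called of 10 plasma cell and IgA genes. Jchain, which joins IgA chains, read 8.86, 9.69 and 10.95 in null and 9.55, 8.91 and 9.90 in wild type pools, so its groups overlapped. T and B lymphocyte markers varied within groups by more than between them. The B cell gene Ms4a1 read 9.69, 7.90 and 9.98 in wild type and 6.09, 9.62 and 10.83 in null pools, and null pool 1 lay above every wild type pool for Igha but was the lowest of the 6 for Ms4a1. The part of lymphocyte content in the Igha difference was not tested.

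The remaining genes higher in null glands had mixed roles. 2210407C18Rik, without a known role, read 7.43, 6.93 and 7.47 against 4.99, 5.52 and 4.93 in wild type (4.38-fold, adjusted p = 0.00071). Capsl, a calcium-binding protein gene, read 5.88, 6.43 and 5.96 against 4.19, 4.11 and 4.68 (3.39-fold, adjusted p = 0.0024). Ly6d, a surface protein of epithelial and B lineage cells, read 9.41, 9.5 and 9.43 against 8.03, 7.03 and 8.31 (3.16-fold, adjusted p = 0.0092). The chemokine gene Cxcl15 was 2.66-fold higher (adjusted p = 0.0080), the tetraspanin gene Tspan1 2.37-fold (adjusted p = 0.0021), Smim38 2.27-fold (adjusted p = 0.0093) and the phosphatase gene Mtmr7 1.83-fold (adjusted p = 0.0017), and a further Mtmr7 probe set differed by -2.16 (adjusted p = 0.00016). These 7 calls were kept whichever pool was left out. Crym (2.65-fold, adjusted p = 0.028), the kininogen gene Kng1 (2.35-fold, adjusted p = 0.020) and Foxi1 (1.88-fold, adjusted p = 0.049), a factor of ion-transporting cells, lost their calls without wild type pool 1 or 3 or null pool 2, with adjusted p between 0.087 and 0.20. Kng1 and Foxi1 were also lost without null pool 1 (0.060 and 0.12) and Crym without null pool 3 (0.094). Kif5c, a kinesin, was 2.00-fold higher (adjusted p = 0.012) and lost its call without wild type pool 1 (0.058).

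**Figure D4:**
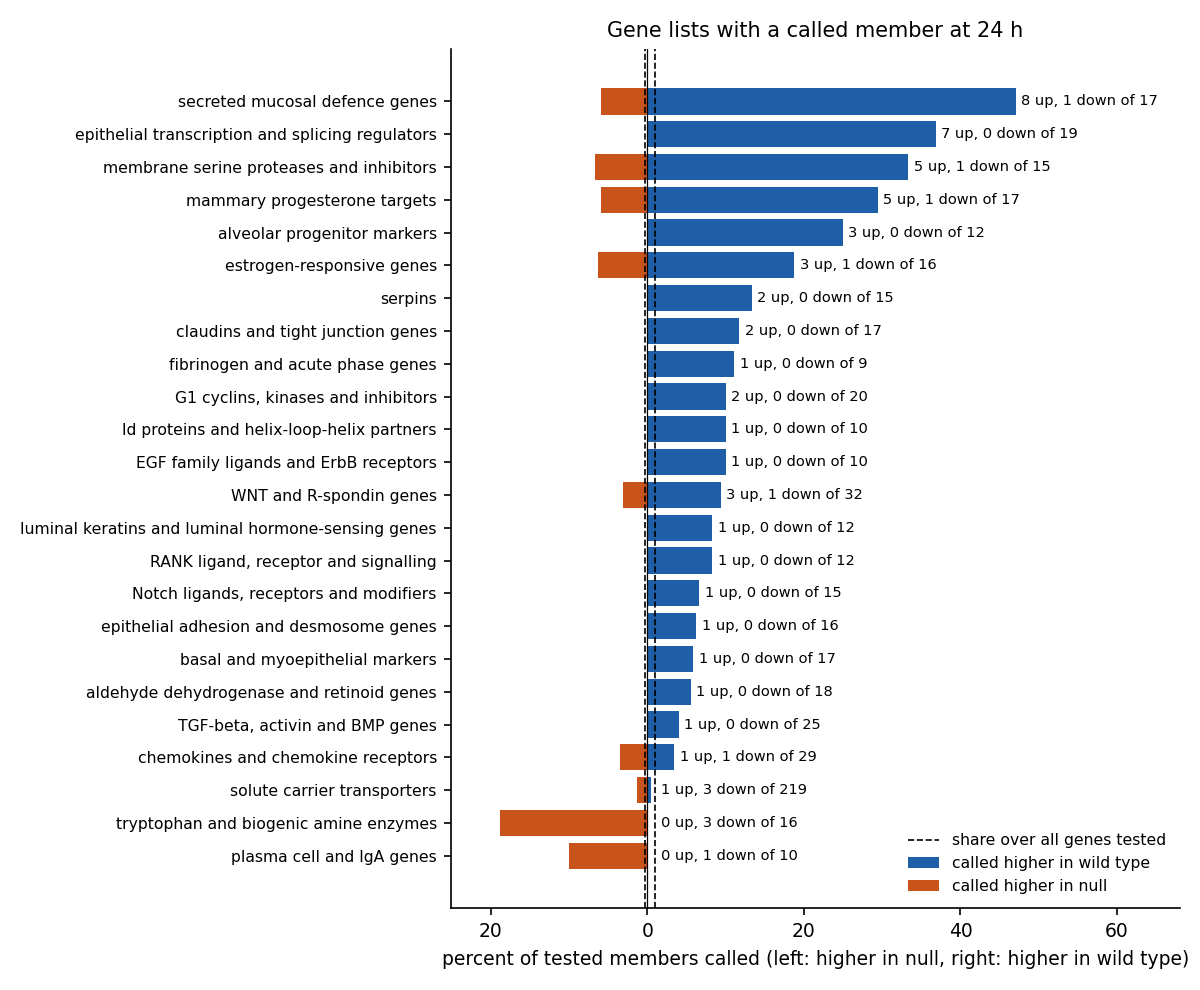
Percent of tested members called at 24 h in the 24 gene lists with at least 1 called member (the genes next to Pgr are left out), to the right for higher in wild type and to the left for higher in null glands. Dashed lines mark the shares over all genes (1.05% and 0.250%). Some genes belong to more than 1 list and are counted in each. The lists were chosen with earlier results of these data known. Mucosal defence genes (8 up and 1 down of 17) and epithelial regulators (7 up of 19) have the longest bars to the right, and tryptophan and amine enzymes (3 down of 16) the longest to the left.

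Limma gave 1658 of all 12004 tested genes an unadjusted p under 0.05. Many other lists had no called member by limma. These included 11 milk protein and milk fat globule genes (3 at an unadjusted p under 0.05), 11 arginine and polyamine enzymes (5), 16 clock genes (4), 21 interferon and antigen presentation genes (1), 16 macrophage markers (0), 17 endothelial markers (3), 27 fibroblast and matrix genes (1) and 10 brown adipocyte markers (1). Their median differences lay between -0.49, in brown adipocyte markers, and 0.26, in arginine and polyamine enzymes. Without wild type pool 2, 2 milk genes, 2 arginine and polyamine enzymes and 1 endothelial marker were called. The fibroblast marker Pdgfra read 10.88, 11.13 and 11.27 in wild type and 10.99, 10.98 and 10.72 in null pools, and the endothelial marker Pecam1 between 7.61 and 7.93 on all 6 arrays.

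The differences at 24 h were set beside those at 8 h. Of the 126 genes higher in wild type at 24 h, 113 also lay higher at 8 h and 39 were called there. Of the 30 higher in null glands, 28 lay higher at 8 h and 21 were called. The matching shares over all genes are not given here, so these counts do not measure how far the times agree. The arrays of the times are separate, though the fit shares 1 estimate of the spread. The difference between the times was itself called for 8 of the 156 genes, and for 16 of all 12004 (0.133%). The 156 were chosen by their difference at 24 h, which is part of this contrast, so these 2 counts cannot be compared. Aldh3a1 and Fcgbp were alike at 24 h and 8 h, with differences of 3.25 and 2.61 in Aldh3a1 and 2.84 and 2.64 in Fcgbp. Slc5a5 and Slc12a2 also had similar values at the times, -2.13 and -2.02 in Slc5a5 and -1.22 and -1.22 in Slc12a2. Sftpd (2.14 and 0.41), Tgfb3 (0.99 and 0.09) and Id4 (1.81 and 0.14) differed more at 24 h, with adjusted p for the change of 0.014, 0.013 and 0.034. For Cldn7, Cdh1, Esrp1 and Ccnd1 the 8 h differences were 0.07, 0.03, 0.04 and 0.09, but the change did not pass (adjusted p = 0.089, 0.15, 0.15 and 0.16).

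**Figure D5:**
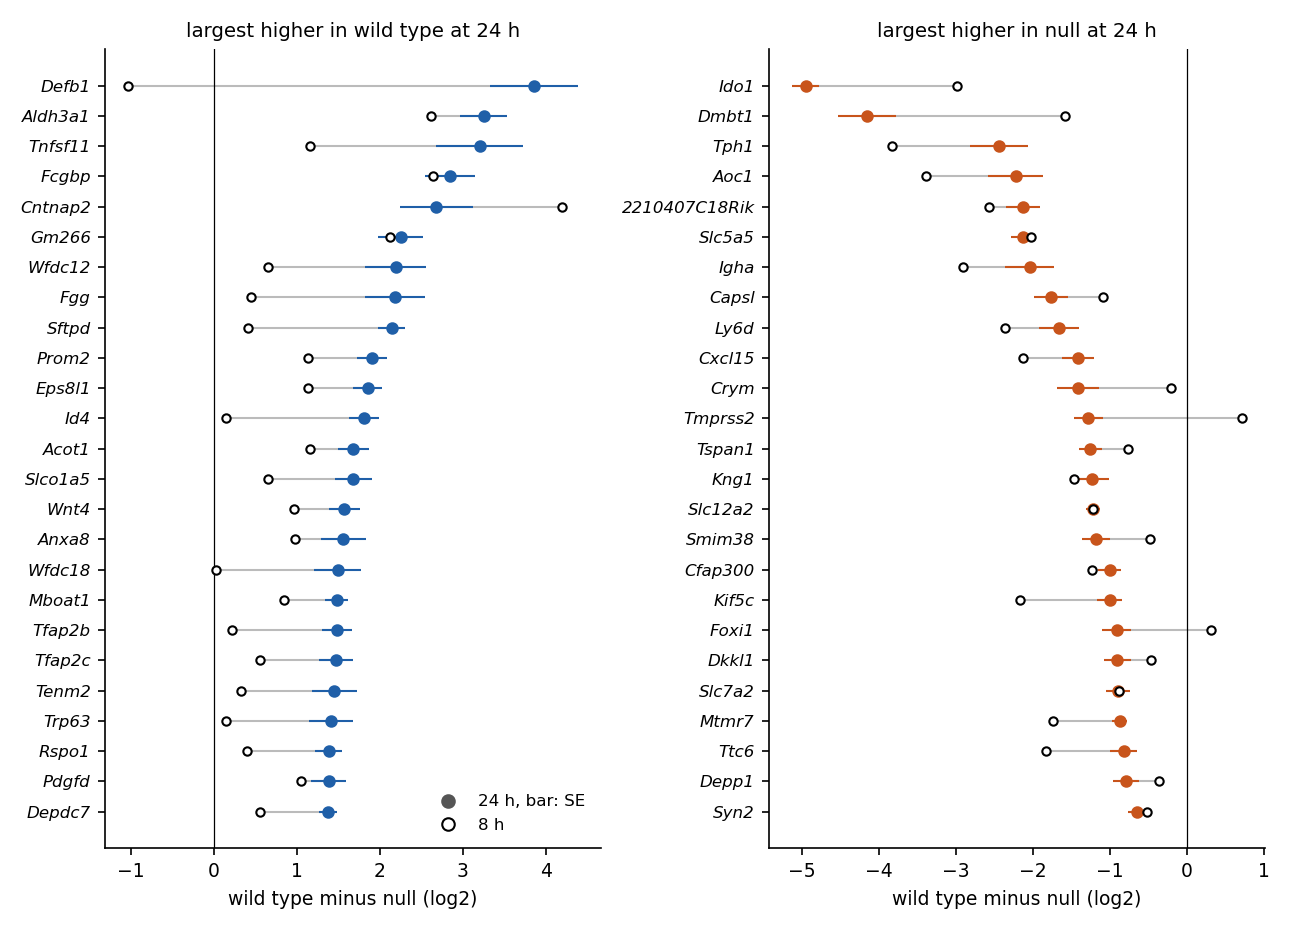
Wild type minus null (log2) at 24 h (filled, with the moderated SE) and at 8 h (open) for the 25 genes with the largest called differences in each direction at 24 h. Most open points lie on the same side of 0 as the filled ones, and Defb1, Tmprss2 and Foxi1 are the exceptions.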

How the data were processed

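Each array measured total RNA of 1 pool of 3 mice, labelled as biotinylated cRNA per the labels' protocols. The deposited values are log2 intensities, judged from their range; how the authors summarized and scaled them is not given in the sources used here. MAS5 is named, with no role, per the submitters' processing notes. Of 45037 probe sets that are not controls, 34945 carry 1 gene symbol in the platform annotation, 932 several and 9160 none; only the first kind was named. The labels give no array batch.

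A probe set was tested (23709 in all) where at least 3 of the 12 arrays had it above their own median. The test was limma's lmFit followed by eBayes with trend (limma 3.58.1, R 4.3.3), with 4 group means fitted to 12 arrays, 8 residual degrees of freedom. Sharing the spread with the 8 h arrays assumes that it is alike at both times. A call is a Benjamini-Hochberg adjusted p below 0.05 over all tested probe sets, for the text's p-values throughout; SE is moderated. The pools are labelled biological replicates. The probe set of a gene with the highest 12-array mean stands for it. The calculation was tested on simulated data.

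Named genes are all Pgr probe sets, the 25 largest called differences each way with groups that do not overlap and a higher mean above the array medians, the 10 smallest adjusted p, the tested progesterone targets, the first 3 and up to 6 called members of each of 48 lists, and 15 genes on each side of Pgr. Neighbours of Pgr were taken in RefSeq order among genes with a symbol on the array. The members and lists were chosen with earlier results of these data known. Same-numbered wild type and null pools had deviations correlated at 0.06, -0.04 and 0.43, so the numbers were not taken to pair the samples. Figures were drawn with matplotlib 3.10.9.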

Additional observations from a re-analysis of the deposited data

Results flagged for a closer look

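For 9 named genes wild type minus null was not the same at 24 h as at 8 h by limma's interaction contrast, adjusted over all tested probe sets. It became more positive at 24 h in Defb1 by 4.91 (log2, adjusted p = 0.037), in Arg1 by 3.70 (0.014), in Sftpd by 1.73 (0.014), in Id4 by 1.67 (0.034), in Tgfb3 by 0.90 (0.013) and in Cldn4 by 0.89 (0.047). It became more negative in Btn1a1, with a change of -2.49 (0.048), in Tmprss2, with -2.0 (0.016), and in Ido1, with -1.96 (0.013). Arg1, Cldn4 and Btn1a1 were not called at 24 h itself (adjusted p = 0.25, 0.28 and 0.25). Arg1, which splits arginine into urea and ornithine, read 7.91, 7.52 and 7.98 in wild type and 7.29, 6.63 and 6.63 in null pools at 24 h, after a difference of -2.75 at 8 h. Btn1a1, a milk fat globule protein, read 6.29, 5.92 and 6.58 against 7.75, 6.80 and 6.64 at 24 h, after 1.70 at 8 h.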

How the results depend on the processing

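The 262 probe sets called numbered between 245 and 290 with no filter, a filter on the 24 h groups, a prior without a trend, a robust prior, a floor at the median, quantile normalization or centring. They numbered 685 with array weights, 71 with only the 24 h arrays, 165 with 1 probe set per gene and 105 with a minimum fold of 1.2, and between 126 and 704 with 1 pool left out. Of the named genes, 74 were called, against 29 with only the 24 h arrays and 45 with the minimum fold, and between 45 and 81 with 1 pool left out. The change between times was called for 9 named genes, against 14 with the floor, 24 with array weights and 5 with the minimum fold, and between 4 and 14 with 1 pool left out; it could not be fitted on the 24 h arrays alone. List members called were 52 genes, against 89 with array weights, 16 with only the 24 h arrays and 30 with the minimum fold, and between 29 and 91 with 1 pool left out. With the pool number as a replicate block the probe sets called were 52 on the 24 h arrays and 482 on all arrays, and on the 24 h arrays 18 named genes and 19 list members were called. The deviations do not settle whether the numbers pair the samples. Wild type pools 1 and 3 correlated best with the null pool of the same number (0.06 and 0.43). Wild type pool 2 correlated best with null pool 1 (0.37). No named gene that was called changed direction under any of these settings. The cause of these shifts was not tested beyond their construction, in which the 24 h arrays alone leave fewer samples, and the small number of arrays limits what any setting can show.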
